A study of Mus musculus with 6 samples.

Results

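Genes annotated to the neuronal cell body were examined by RNA sequencing in the colon of control mice and of mice exposed long-term to PFOA (perfluorooctanoic acid, a fluorinated surfactant that persists in the environment) with 3 libraries per group. The labels give the tissue, the treatment and 6 frozen mice per group. They give no strain, age, sex, dose, duration or part of the colon, and do not say which mice entered which library, so that spread between libraries may be technical. Members are the rows of the deposited count table whose GO annotation holds the term neuronal cell body. The table has 2033 rows, 962 with any GO annotation, and 34 carry the term. Nts, the neurotensin gene, was set aside, and 33 rows remain.

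The neuronal cell body is the part of a neuron that holds the nucleus and makes most of its proteins. In the gut wall such cell bodies lie in the ganglia of the enteric nervous system, while sensory fibres from outside reach the wall without their cell bodies. A GO term of this kind records where a protein has been seen in some tissue, mostly brain, and many of these genes are also active in epithelial, muscle, endocrine or immune cells. The label was therefore checked against defining markers. Of 31 enteric neuron markers, only Gal and Ddc had a row in the table, and of 10 enteric glia markers only Gfap did. The table lists selected rows, so that nothing is known here of markers outside it. None of 6 tuft cell markers had a row either. The label stands here for the annotation and not for a cell type.

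Only rows that differ between these groups are in the table. The log2 ratio of mean raw counts was -1.08 or lower or 0.92 or higher in every row. Among the members, those nearest to that gap were Trak2, with a raw log2 ratio of 0.99, and Ppp1r1b, with -1.24. The size of each difference below is therefore a description of rows chosen for it. Counts of listed rows summed to between 1771120 and 2269892 per library, which is not the sequencing depth. The libraries also differed in Hoxb13, a marker of the posterior gut, with 9884, 5730 and 7988 control counts and 0, 6 and 3 PFOA counts. PFOA and the position of the sampled colon cannot be told apart for any gene here.

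Of the 33 members, 23 were higher and 10 lower in PFOA (69.7% higher, against 50.9% of all listed rows and 50.3% of listed rows with any GO annotation). Ntrk2, the receptor of brain-derived neurotrophic factor, was 10.7-fold higher, and Trpv1, the capsaicin-gated cation channel, was 10.9-fold lower. Receptors of transmitters and growth factors were mostly higher (6 of 7 with their scaffold), whereas intracellular signalling proteins were split (3 of 6 higher). In edgeR's quasi-likelihood test 31 members had counts high enough to be tested, and 21 were called higher and 10 lower. Over the whole table, 50.0% of tested rows were called higher and 50.0% lower, together 100% of the tested rows, so that a call restates the selection. The largest adjusted p among the tested members was 0.0226, for Gria2. The median absolute log2 fold change was 1.56 over the tested members and 1.76 over all tested rows. Libraries of the 2 groups did not overlap in 32 of 33 members, with Sst the exception, beside 97.1% of all listed rows. In bulk tissue, fewer cells of a type and less RNA per cell cannot be told apart.

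**Figure D1:**
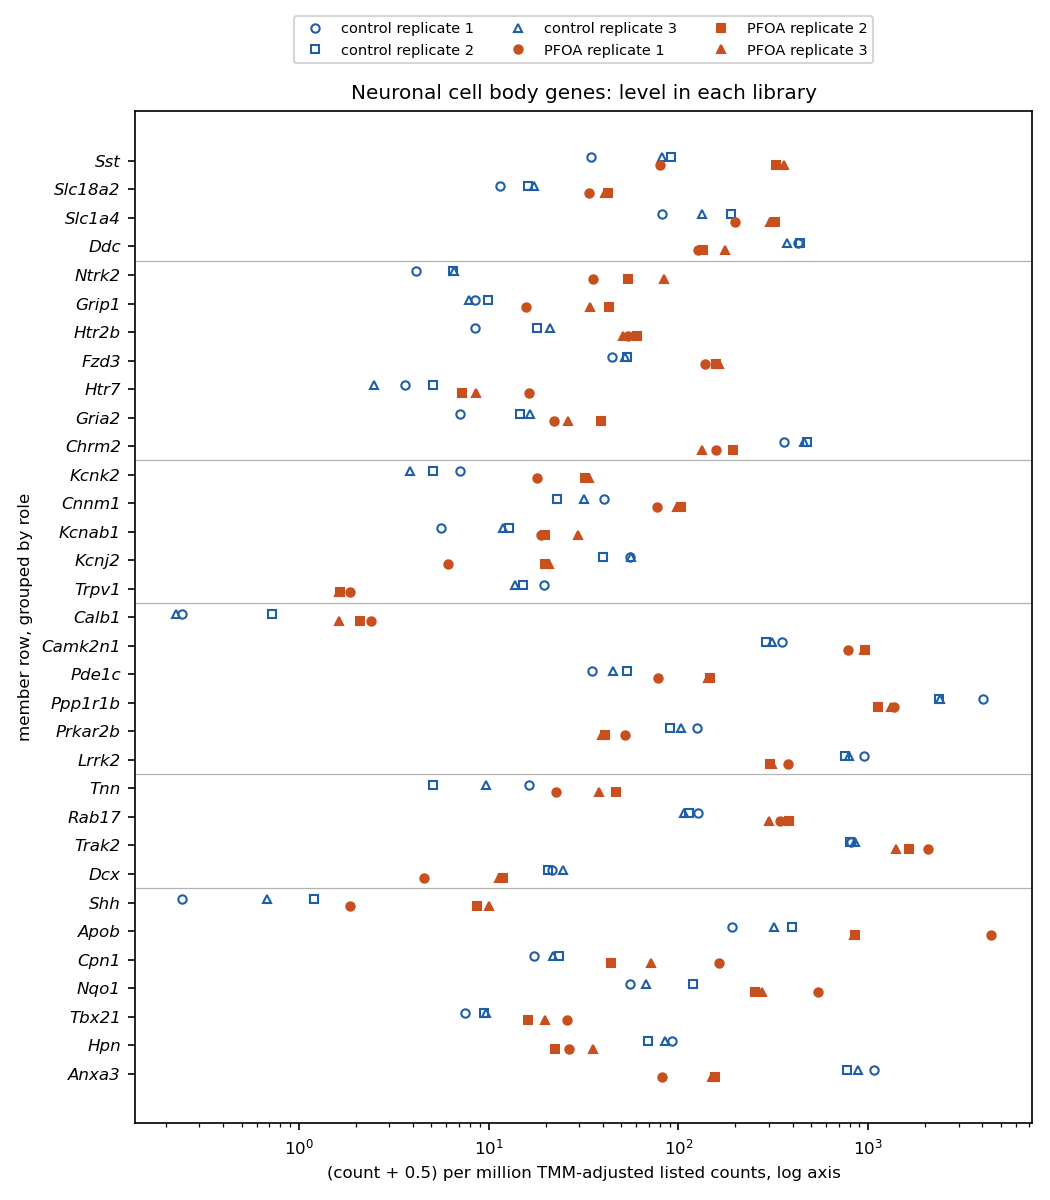
Level of each of the 33 members in each of the 6 libraries, in CPM (the count relative to the TMM-adjusted total of listed counts) with 0.5 counts added, on a log axis, with rows grouped by role. Open blue symbols are control libraries and filled orange symbols PFOA libraries. Sst is the member whose groups overlap, and Apob has 1 PFOA library, replicate 1, far above the other two.

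Promoter sequence was available from RefSeq (GRCm38.p6, the build also called mm10) for 27 of the 33 members. The 250 bases before a start are printed for the tested members with the largest fold in each direction (Ntrk2 and Trpv1), for the peptide gene Sst, whose cAMP response element is a textbook case, and for Ddc and Slc18a2, which follow each other in the making and storage of amines and lay on opposite sides. RefSeq gives 2 starts for Ddc. Sequences run 5′ to 3′ on the gene's strand and end next to the start. Capitals mark matches on either strand to the TATA box motif TATAAA, the cAMP response core TGACGT, the nuclear receptor core AGGTCA, the GC box motif GGGCGG and the box named CCAAT.
Ntrk2, chr13:58806319-58806568, plus strand: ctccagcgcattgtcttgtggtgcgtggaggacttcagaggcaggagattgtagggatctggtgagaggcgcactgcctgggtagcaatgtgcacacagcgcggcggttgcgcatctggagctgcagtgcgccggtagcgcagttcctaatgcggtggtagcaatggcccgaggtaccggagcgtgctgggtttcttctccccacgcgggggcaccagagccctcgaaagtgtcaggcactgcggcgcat
Trpv1, chr11:73233899-73234148, plus strand: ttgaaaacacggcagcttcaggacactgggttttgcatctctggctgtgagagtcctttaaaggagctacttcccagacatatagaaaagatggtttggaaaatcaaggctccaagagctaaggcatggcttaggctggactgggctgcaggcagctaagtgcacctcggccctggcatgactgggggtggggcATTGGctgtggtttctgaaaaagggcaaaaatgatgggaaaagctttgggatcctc
Sst, chr16:23890845-23891094, minus strand: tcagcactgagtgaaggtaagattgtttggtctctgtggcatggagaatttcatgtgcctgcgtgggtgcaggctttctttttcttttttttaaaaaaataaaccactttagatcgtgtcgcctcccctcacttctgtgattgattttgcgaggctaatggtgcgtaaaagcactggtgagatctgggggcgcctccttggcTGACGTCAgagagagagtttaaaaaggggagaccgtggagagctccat
Ddc outer start, chr11:11898145-11898394, minus strand: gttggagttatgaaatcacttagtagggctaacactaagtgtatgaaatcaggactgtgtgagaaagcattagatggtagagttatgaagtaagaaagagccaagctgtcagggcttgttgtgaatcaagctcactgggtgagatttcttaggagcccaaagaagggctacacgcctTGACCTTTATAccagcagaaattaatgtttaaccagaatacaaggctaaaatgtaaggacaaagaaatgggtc
Ddc inner start, chr11:11890409-11890658, minus strand: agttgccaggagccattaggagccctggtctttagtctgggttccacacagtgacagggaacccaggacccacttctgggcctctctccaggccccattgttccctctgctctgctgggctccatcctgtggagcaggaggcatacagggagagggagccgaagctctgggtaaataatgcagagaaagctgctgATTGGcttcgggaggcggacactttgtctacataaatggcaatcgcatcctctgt
Slc18a2, chr19:59260628-59260877, plus strand: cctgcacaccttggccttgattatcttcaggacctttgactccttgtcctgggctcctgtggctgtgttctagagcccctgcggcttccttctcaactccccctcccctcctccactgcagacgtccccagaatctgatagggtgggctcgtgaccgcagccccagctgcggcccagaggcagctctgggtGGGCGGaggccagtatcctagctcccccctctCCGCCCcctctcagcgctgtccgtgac

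In Sst the palindrome TGACGTCA lay 48 to 41 bases before the RefSeq start and matches TGACGT on both strands. The deposited Sst row ends at 23890958, upstream of that start, so that the palindrome lies inside the row. The other member with TGACGT was Slc1a4, so that 2 of 27 members (7.41%) held it, beside 7.29% of 27025 genes in the RefSeq table. In the outer Ddc promoter the AGGTCA and TATAAA matches share a base. The shares of members and of all genes were 18.5% and 14.3% for TATAAA, 11.1% and 15.8% for AGGTCA, 48.1% and 35.4% for GGGCGG, and 40.7% and 37.5% for CCAAT. Genes with several starts count once if any start has a match. No motif of the 5 was seen in the Ntrk2 window, which says only that these letters are not in it. The median GC content of the 27 members' windows was 56.8%, from 37.6% in Htr2b to 82.0% in Htr7, beside 52.4% over all genes. These matches describe letters and not bound sites.

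Among genes that supply transmitters and peptides, Sst, Slc18a2 and Slc1a4 were higher and Ddc lower. Sst (chr16:23889573-23890958, mm10) encodes somatostatin, an inhibitory peptide of D cells and some enteric neurons. It had 71, 190 and 180 counts in control libraries against 149, 696 and 776 under PFOA. The rise lay in PFOA replicates 2 and 3, while PFOA replicate 1 lay between the control libraries. Its log2 fold change was 1.89 ± 0.60 (SE, 3 libraries a group), and its call was lost without control replicate 1 (edgeR adjusted p = 0.067).

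Ddc (chr11:11814101-11898144), the decarboxylase that makes serotonin and dopamine, had 876, 911 and 829 control counts and 237, 286 and 376 PFOA counts. PFOA was 2.82-fold lower and the groups were far apart (estimated log2 change -1.51 ± 0.22, SE, 3 libraries a group). Slc18a2, a transporter that loads amines into vesicles, had 23, 33 and 38 counts in control libraries against 63, 90 and 88 under PFOA. Its level was 2.64-fold higher under PFOA. Ddc and Slc18a2 thus lay on opposite sides in every PFOA library. Whether the same cells express both was not tested. Slc1a4, a carrier of alanine, serine and other neutral amino acids, had 169, 394 and 293 control counts and 371, 691 and 656 PFOA counts. PFOA replicate 1 was lower in raw count than control replicate 2, and the groups separated only after scaling. Its log2 fold change was 1.03 ± 0.35 (SE, 3 libraries a group). Removing control replicate 1, control replicate 3, PFOA replicate 2 or PFOA replicate 3 ended its call, with adjusted p of 0.0944, 0.0967, 0.0545 and 0.0514 in edgeR.

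These genes are shared with endocrine and mast cells. Some markers of those cells also had rows, all of them differing by selection. Of 19 enteroendocrine markers 6 had a row, with Sst and Sct, the secretin gene, higher and Isl1, Gcg, Insl5 and Neurog3 lower. Without Sst, their summed level was 966.7 to 1443 CPM in control and 258.7 to 368.4 in PFOA. Of 5 mast cell markers the proteases Mcpt1 and Mcpt2 had rows, and both were higher, with a summed level of 0.452 to 0.973 CPM in control and 5.63 to 26.2 in PFOA. In control each of these 2 rows had a library at 0. The part of either cell type in the levels of Sst, Ddc and Slc18a2 was not tested.

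Receptors and their scaffold had 6 members higher and Chrm2 lower. Ntrk2 (chr13:58806569-59129965), the receptor named above, through which brain-derived neurotrophic factor supports neurons, had 8, 13 and 14 counts in control libraries against 66, 115 and 181 under PFOA. Every PFOA library exceeded every control library, and the log2 fold change was 3.38 ± 0.45 (SE, 3 libraries a group), or 3.02 to 3.61 when each library was left out in turn. Fzd3, a Frizzled receptor of Wnt signals that guides axons, had 92, 110 and 115 control counts and 258, 335 and 352 PFOA counts, 3.07-fold higher. Its replicates were close together in both groups. Grip1, a scaffold that anchors AMPA-type glutamate receptors, had 17, 20 and 17 counts in control libraries against 29, 91 and 73 under PFOA, 3.68-fold higher. PFOA replicate 1 was the PFOA library nearest to control.

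Gria2, a subunit of AMPA-type glutamate receptors that keeps them closed to calcium, had 14, 30 and 36 control counts and 41, 83 and 56 PFOA counts. The gap between the highest control and the lowest PFOA library was small, and the log2 fold change was 1.21 ± 0.42 (SE, 3 libraries a group). Leaving out control replicate 1 or PFOA replicate 2 ended its call, with adjusted p of 0.0879 and 0.0717 in edgeR. The serotonin receptor Htr2b had 17, 37 and 46 counts in control libraries against 101, 129 and 109 under PFOA, 3.49-fold higher. Each PFOA library was higher than every control library, but an exon of Htr2b shares 252 bases with an exon of Psmd1, a proteasome gene. Strand use in counting is not given in the sources used here. Of the members, 9 share exon bases with another annotated gene, and reads there may belong to either gene. The largest overlap of an exon pair ran from 25 bases, for Cnnm1 with Gm47936, to 361, for Shh with Gm26894. Cnnm1 also shared 124 bases with Gm47938. The serotonin receptor Htr7, which raises cAMP, had 7, 10 and 5 control counts and 30, 15 and 18 PFOA counts, 2.95-fold higher. Here PFOA replicate 1 was the highest, and leaving out control replicate 1 or control replicate 3 ended the call, with adjusted p of 0.0549 and 0.0743 in edgeR.

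Chrm2, the muscarinic acetylcholine receptor M2, is abundant in gut smooth muscle, where acetylcholine drives contraction. It had 742, 983 and 1021 counts in control libraries against 295, 411 and 285 under PFOA, 2.69-fold lower, with an estimated log2 change of -1.42 ± 0.24 (SE, 3 libraries a group). All PFOA libraries lay below all control libraries. Of 10 smooth muscle markers Cnn1, the calponin gene, had a row, and it was also lower, with 12148, 5275 and 7665 control counts and 2758, 4210 and 4489 PFOA counts. Of 3 markers of interstitial cells of Cajal, the pacemaker cells of the gut wall, Ano1 had a row. This chloride channel, which epithelium can also express, had 30662, 21967 and 26918 counts in control libraries against 2289, 4740 and 4550 under PFOA. The part of muscle and pacemaker cells in the Chrm2 level was not tested.

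**Figure D2:**
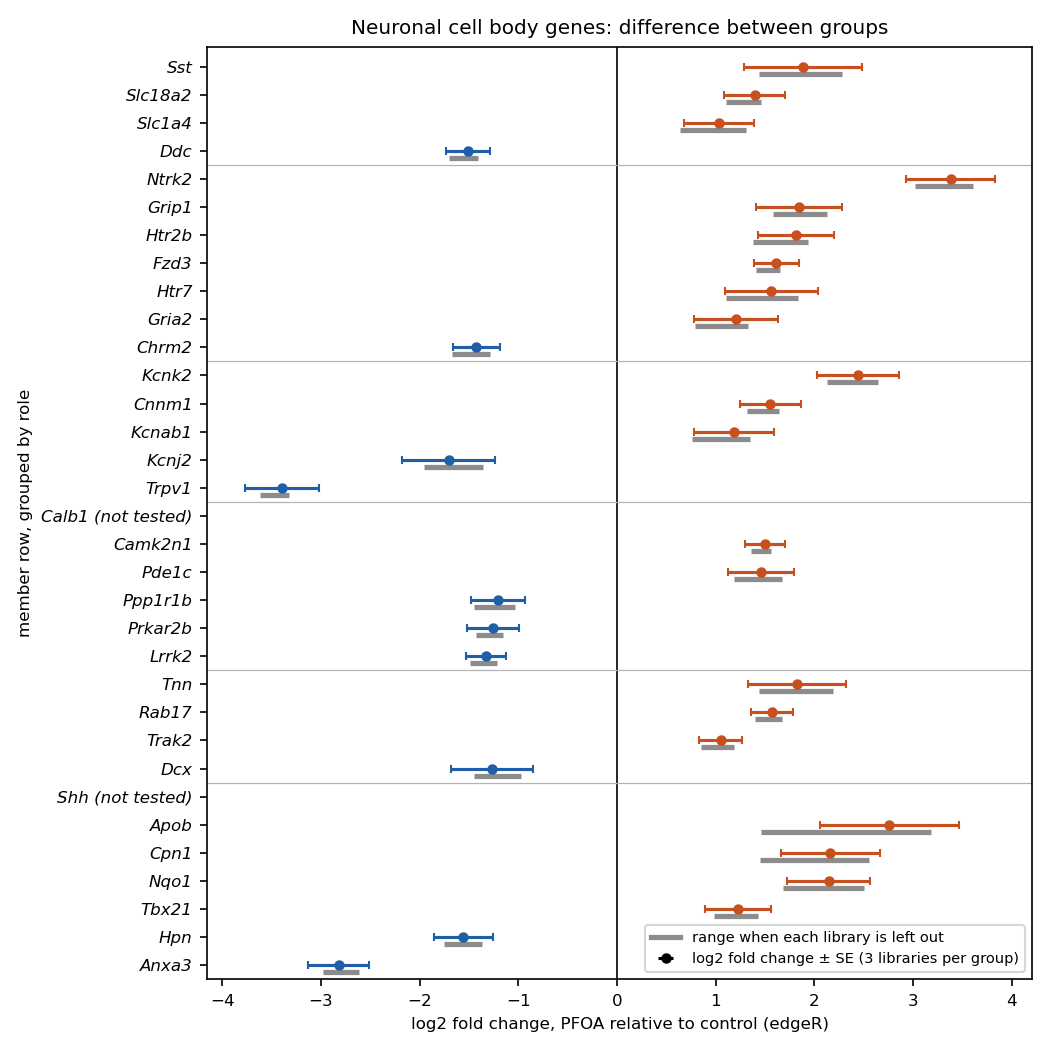
Log2 fold change of PFOA relative to control from edgeR for the 31 tested members, with the standard error as error bars (3 libraries per group) and a grey bar for the range over the fits that leave out 1 library each. Shh and Calb1 had too few counts to be tested, and no range crosses 0.

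Ion channels and ion transporters had 3 members higher and 2 lower. Trpv1 (chr11:73234292-73261239), which opens to heat, acid and capsaicin and is known from pain-sensing fibres, had 40, 31 and 30 control counts and 3, 3 and 3 PFOA counts. It was near the lower end of detection in each PFOA library, with a log2 fold change of -3.39 ± 0.38 (SE, 3 libraries a group), or -3.62 to -3.32 with each library left out. Kcnj2, the inward rectifier that holds cells at their resting potential, had 114, 83 and 124 counts in control libraries against 11, 42 and 44 under PFOA, 3.21-fold lower. PFOA replicate 1 was the lowest library.

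Kcnk2, a potassium leak channel that opens to stretch, had 14, 10 and 8 control counts and 33, 68 and 72 PFOA counts, 5.57-fold higher, with an estimated log2 change of 2.44 ± 0.42 (SE, 3 libraries a group). The lowest PFOA library was above the highest control library. Cnnm1, a metal transporter of neurons, had 83, 47 and 70 counts in control libraries against 144, 220 and 210 under PFOA, 2.96-fold higher. Kcnab1, a cytoplasmic subunit that tunes voltage-gated potassium channels, had 11, 26 and 26 control counts and 35, 42 and 63 PFOA counts. Its log2 fold change was 1.19 ± 0.41 (SE, 3 libraries a group). Removing control replicate 1, control replicate 3 or PFOA replicate 3 ended its call, with adjusted p of 0.0869, 0.0646 and 0.0729 in edgeR. Potassium channel members thus lay on both sides.

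Intracellular signalling members were split, with Pde1c, Camk2n1 and Calb1 higher and Ppp1r1b, Prkar2b and Lrrk2 lower. Ppp1r1b (DARPP-32), a phosphatase inhibitor switched on by cAMP-dependent kinase and known from dopamine signalling, had the highest count of the members in control. It had 8316, 4869 and 5294 counts in control libraries against 2548, 2409 and 2842 under PFOA, 2.30-fold lower, with an estimated log2 change of -1.20 ± 0.27 (SE, 3 libraries a group). Control replicate 1 stood above the other control libraries, and the groups did not overlap. Prkar2b, a regulatory subunit of the same cAMP-dependent kinase, had 256, 186 and 228 control counts and 98, 87 and 85 PFOA counts, 2.41-fold lower. Pde1c, a phosphodiesterase that breaks down cAMP and cGMP when calcium rises, had 72, 111 and 100 counts in control libraries against 145, 313 and 309 under PFOA, 2.79-fold higher.

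Camk2n1, an inhibitor of calcium/calmodulin-dependent kinase II, had 727, 600 and 685 control counts and 1465, 2038 and 2054 PFOA counts, 2.85-fold higher. Lrrk2, a large kinase with a part in inherited Parkinson's disease, had 1954, 1565 and 1748 counts in control libraries against 707, 648 and 672 under PFOA, 2.52-fold lower, with an estimated log2 change of -1.33 ± 0.21 (SE, 3 libraries a group). Both rows had tight replicates in either group. Calb1, a calcium buffer, had 0, 1 and 0 control counts and 4, 4 and 3 PFOA counts. The ratio was 11.3 with a 95% Clopper-Pearson interval from 1.65 to 488, which covers counting error only.

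Trafficking, cytoskeleton and matrix genes had 3 members higher and Dcx lower. Dcx, the doublecortin of migrating young neurons, had 44, 42 and 54 counts in control libraries against 8, 25 and 24 under PFOA, 2.38-fold lower. PFOA replicate 1 was the lowest library. Trak2, an adaptor that links mitochondria to kinesin, had 1670, 1661 and 1892 control counts and 3857, 3497 and 3025 PFOA counts, 2.05-fold higher. Rab17, a small GTPase of recycling endosomes in polarised epithelia and dendrites, had 259, 235 and 235 counts in control libraries against 645, 818 and 645 under PFOA, 2.98-fold higher. Both showed well separated groups. Per kilobase of row length, Trak2 was among the most abundant members in control, at 116.1 CPM, whereas Rab17 was at 11.46. Tnn, the matrix protein tenascin-N, had 33, 10 and 21 control counts and 42, 100 and 82 PFOA counts, 3.61-fold higher, and PFOA replicate 1 was again the PFOA library nearest to control.

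A last set of 7 members is best known outside neurons, and 5 of them were higher. Apob, the scaffold protein of chylomicrons, had 392, 823 and 706 counts in control libraries against 8328, 1821 and 1814 under PFOA. All PFOA libraries lay above control, but PFOA replicate 1 was 5.24-fold above its mates. The log2 fold change was 2.76 ± 0.70 (SE, 3 libraries a group) and 1.46 without that library. Cpn1, a carboxypeptidase that trims basic residues from peptides such as bradykinin, had 35, 48 and 48 control counts and 304, 94 and 153 PFOA counts, a log2 change of 2.16 ± 0.50 (SE, 3 libraries a group), or 1.45 without PFOA replicate 1. Nqo1, a quinone reductase of the oxidative stress response, had 114, 247 and 149 counts in control libraries against 1014, 538 and 594 under PFOA, 4.34-fold higher. In these 3 rows PFOA replicate 1 was the highest library.

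Anxa3, the membrane-binding annexin A3 in a row merged with the predicted gene Gm42603, had 2220, 1610 and 1945 control counts and 153, 330 and 322 PFOA counts. It was 6.96-fold lower, with an estimated log2 change of -2.82 ± 0.31 (SE, 3 libraries a group), next to Trpv1 among the lower members. Hpn, a serine protease of the cell surface, had 191, 143 and 187 counts in control libraries against 49, 47 and 76 under PFOA, 2.94-fold lower. Shh, the Sonic hedgehog morphogen that gut epithelium sends to the mesenchyme, had 0, 2 and 1 control counts and 3, 18 and 21 PFOA counts. The ratio was 14.4 with a 95% Clopper-Pearson interval from 4.61 to 72.8 for counting error, and PFOA replicate 1 lay just above control.

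Tbx21 (T-bet), the transcription factor of type 1 helper and natural killer cells, had 15, 19 and 21 counts in control libraries against 48, 34 and 42 under PFOA, 2.32-fold higher. Of 8 T and natural killer cell markers 5 had a row, namely Trdc, Cd8a, Nkg7, Gzma and Gzmb, and all 5 were higher. Their summed level was 31.4 to 63.7 CPM in control and 94.9 to 280.1 in PFOA, with no library at 0 in any row. PFOA replicate 1 had the highest counts of Tbx21, Trdc, Cd8a, Gzma and Gzmb. The part of these cells in the Tbx21 level was not tested.

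**Figure D3:**
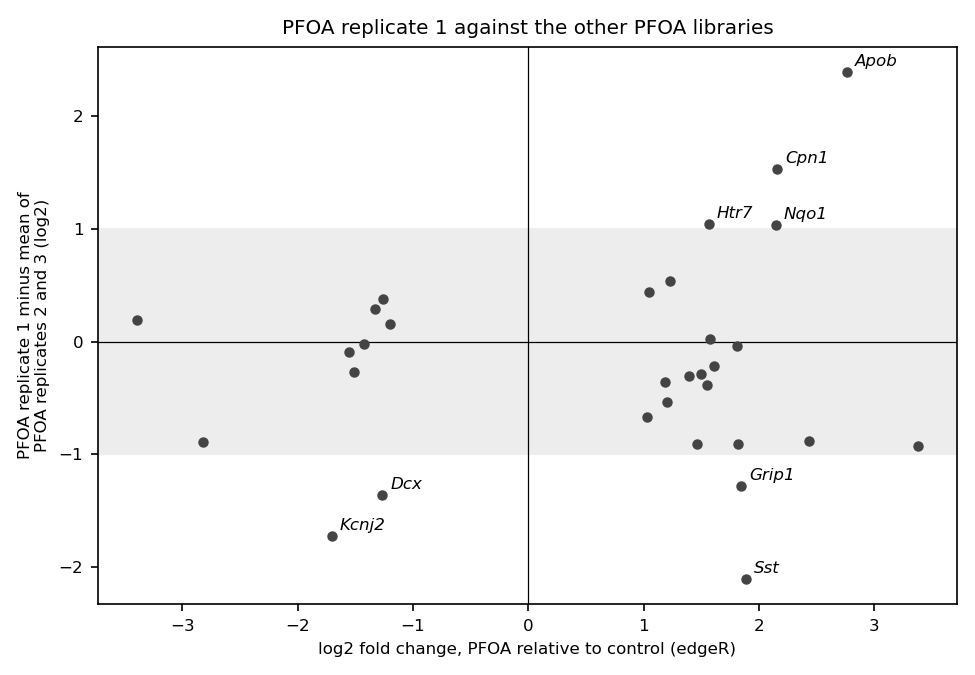
Log2 level of PFOA replicate 1 minus the mean of PFOA replicates 2 and 3 (vertical) against the log2 fold change between groups (horizontal) for the 31 tested members. The shaded band holds differences under 2-fold, and the 8 named members lie outside it, 4 above and 4 below.

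PFOA replicate 1 stood apart in 8 of 31 tested members by at least 2-fold from the mean of the other PFOA libraries, on log2 values with 0.5 counts added. That share is close to the 26.0% found over all tested rows, so the members resemble the table in this. Apob, Cpn1, Nqo1 and Htr7 were above and Sst, Kcnj2, Dcx and Grip1 below. For Kcnj2 and Dcx this library was farther from control than its mates, and for Sst and Grip1 it was nearer. Of the control libraries, replicates 1, 2 and 3 differed in this way in 5, 1 and 0 members, beside 15.7%, 12.4% and 7.34% of all tested rows. PFOA replicates 2 and 3 did so in 2 members each, beside 12.5% and 14.6%.

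**Figure D4:**
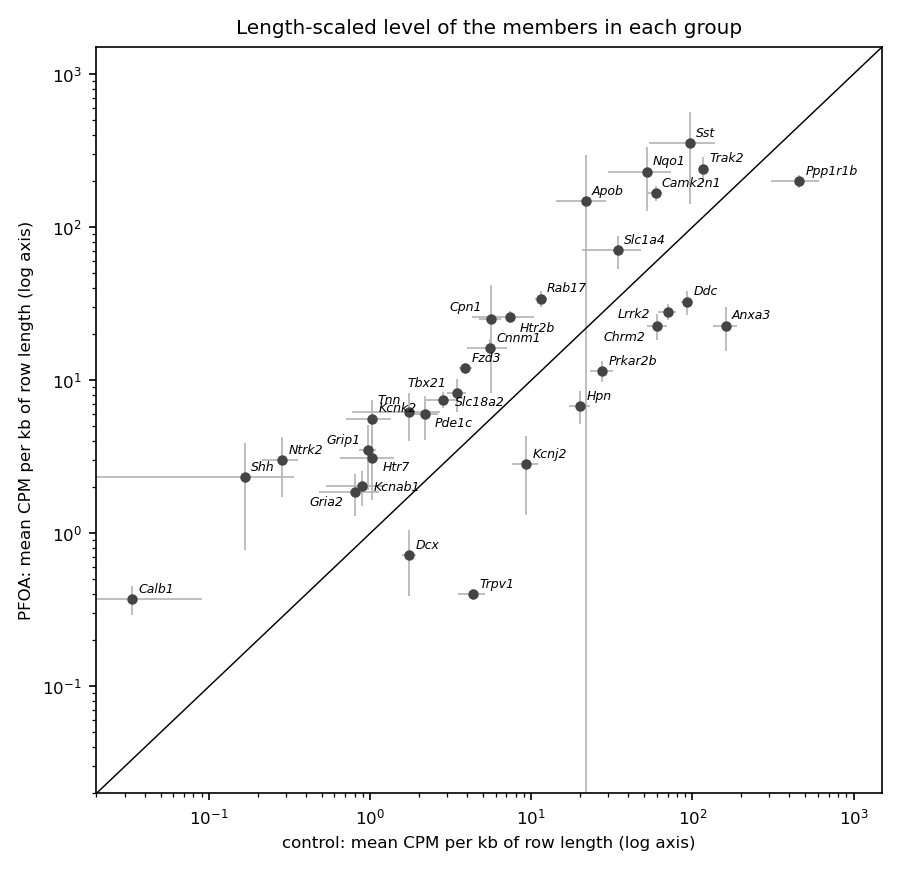
Mean level per kilobase of row length in PFOA against control for the 33 members, both on log axes, with the SD over 3 libraries as error bars and the line of equality. Bars that run off the axis reach 0 or below, as for Apob, Shh and Calb1. Ppp1r1b is the highest member in control and Sst in PFOA.

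Levels between genes were compared per kilobase of the deposited row length, in CPM over TMM-adjusted listed counts. In control, Ppp1r1b was highest at 460.1 ± 151.6 (SD, n = 3), ahead of the Anxa3 row at 160.7 ± 27.1 and Trak2 at 116.1 ± 4.03. In PFOA the highest member was Sst at 354.9 ± 213.0 (SD, n = 3), followed by Trak2 at 240.4 ± 46.8, and the SD of Sst covers the gap between them. Ntrk2, with the largest fold among the higher tested members, stayed low, at 0.285 ± 0.072 in control and 2.998 ± 1.28 in PFOA. Trpv1 went from 4.345 ± 0.835 to 0.399 ± 0.032. The lowest member in control was Calb1, at 0.033.

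Of the 33 members, 25 also carry at least 1 of the terms axon, dendrite, synapse, neuron projection and perikaryon. Dendrite was shared by 20 members (60.6%, against 1.18% of the other rows with any GO annotation) and axon by 10 (30.3% against 1.29%). Terms of this family are often given to a gene together. Outside the members, 48 listed rows carry 1 of these terms or neuropeptide signalling, and of the 42 tested 18 were called higher and 24 lower. The axon rows had 4 higher and 7 lower of 11, the dendrite rows 3 and 7 of 10, the synapse rows 8 and 7 of 15, the neuron projection rows 5 and 7 of 12, and the perikaryon rows 3 and 6 of 9. Those lists share rows. Of all tested rows, 50.0% were called higher.

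Some of these genes have known roles close to those of members, and most of those below are given for such roles. The largest fold among the rows that could be named was that of Rgs8, a dendrite and perikaryon row. It had 124, 68 and 105 control counts and 5, 2 and 0 PFOA counts, 41.2-fold lower. Grip2, a relative of the scaffold Grip1, had 22, 17 and 17 control counts and 199, 159 and 198 PFOA counts, 10.2-fold higher. Grip1, Grip2 and Gria2 thus lay on the same side, as did 50.9% of all listed rows. Whether the same cells express them was not tested. Slc6a4, the transporter that takes serotonin back into cells, had 736, 444 and 548 counts in control libraries against 210, 194 and 161 under PFOA, 2.97-fold lower. All PFOA libraries lay below all control libraries. Npy1r, a receptor of neuropeptide Y and peptide YY, had 263, 292 and 314 control counts and 35, 43 and 44 PFOA counts, 6.91-fold lower. Abat, which breaks down the transmitter GABA, had 9728, 8296 and 9831 counts in control libraries against 3275, 2526 and 2647 under PFOA, 3.20-fold lower.

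Gal, the peptide galanin of enteric neurons, had 16, 29 and 33 control counts and 37, 161 and 138 PFOA counts, 4.44-fold higher. As for Sst, the high libraries were PFOA replicates 2 and 3. Gfap, an intermediate filament of enteric glia, had 38, 33 and 41 counts in control libraries against 102, 129 and 107 under PFOA, 3.11-fold higher, with all PFOA libraries high. With Ddc lower, the 3 listed neuronal and glial markers did not lie on 1 side. Ddc is however shared with endocrine cells, as said above, and Gal and Gfap were both higher.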

How the data were processed

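The authors deposited 1 table of raw read counts per gene row for the 6 libraries, with row lengths and functional annotation. HISAT2, HTSeq and the build mm10 are named in the submitters' processing notes, and a SMARTER mRNA-Seq kit in the labels' protocols. For strand use, multi-mapping and row selection, the method is not given in the sources used here. Count columns were matched to samples by the sample descriptions, and coordinates are those of the table. Precision is limited by 3 libraries per group and by counts per row, and sequencing depth is unknown.

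All 2033 rows entered the fit: edgeR 4.0.16 (R 4.3.3), filterByExpr (1608 rows kept), TMM scaling, glmQLFit and glmQLFTest without covariates, two-sided, Benjamini-Hochberg adjustment over tested rows at 0.05. The standard error is the absolute log2 fold change divided by the square root of F. Plain folds are ratios of summed counts over TMM-adjusted totals. The edgeR step was run on simulated data in which most rows did not change. That run does not cover a table in which every tested row differs. Exon overlaps come from GENCODE M21 and give the largest overlap of any exon pair, not the total. Promoters were matched by symbol.

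The design had assumed that calls could be read as tests, and the selected table allows them only as a description. Members and lists were chosen with earlier results of these data known. Every member is described. Of other genes, up to 4 with the smallest p per GO list could be named, and marker rows were taken from fixed lists, 1 gene of which is not reported here. Hoxb13 was named after its values were seen. Alternatives were DESeq2 1.42.0, 2 other scalings, 2 other filters, the replicate number as a block and each library left out.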

Additional observations from a re-analysis of the deposited data

How the results depend on the processing

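The direction was the same for all 31 tested members in the 12 alternative fits. Of 372 values, 360 kept their call, none reversed, and 12 lost it, all with a library left out, in Sst, Slc1a4, Gria2, Htr7 and Kcnab1. The rows were chosen for a difference between these same libraries, so kept directions and calls largely restate that selection. Members called higher ranged from 17 to 22, and those called lower stayed at 10, as libraries were left out. Over all tested rows of those fits, 721 to 806 were called higher and 810 to 859 lower, beside 804 each in the main fit. Without PFOA replicate 1 the fold of Apob and of Cpn1 moved by over 1.5 times. No other fit moved the fold of a tested member that far. Scaling by library totals alone shifted the log2 fold change of the 1608 tested rows by a median of -0.201, and DESeq2 by -0.183. Neither turned a member. All scalings were computed from the selected rows, so every fold is relative to those rows. Without a filter, edgeR also called Shh and Calb1 (adjusted p = 0.00834 and 0.0156), whereas DESeq2 did not call Calb1 (adjusted p = 0.0634). With the replicate number as a block, 21 members were called higher and 10 lower, as without it. Same-numbered libraries correlated in their deviations from the group means at 0.114, -0.0306 and 0.102. Control replicate 1 correlated best with PFOA replicate 1, but control replicate 2 with PFOA replicate 3 (0.0648) and control replicate 3 with PFOA replicate 2 (0.117). Values this small do not settle whether the numbers pair the libraries. Low counts limit Calb1, Shh, Htr7 and Trpv1 most.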
